A study of Homo sapiens with 6 samples.

Results

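The genes of glucose breakdown and lactate export were followed in wild-type OVCAR8, a line of human ovarian cancer cells, after exposure to pladienolide B (plaB). PlaB is a small molecule that binds SF3B1, a subunit of the SF3b complex with which the spliceosome recognises the branch point of introns. One group of 3 samples received DMSO, the vehicle, and the other group of 3 samples received plaB at 2 nM, both for 72 h, and polyadenylated RNA was sequenced. The comparison asks how the pathway's transcripts differed between plaB and vehicle at this dose and time. Splicing itself was not analysed here. A total of 36 genes were taken by symbol from the 38637 genes of the deposited table, covering each step from glucose uptake to lactate export, the pyruvate dehydrogenase switch and the branch into glycogen. They were selected with the DMSO and plaB values already known, so their values are given as a description. All 36 passed the filter on low values, which left 16178 genes.

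Glycolysis turns glucose into pyruvate in the cytosol. Pyruvate then either enters mitochondria through the pyruvate dehydrogenase complex or is reduced to lactate, which leaves the cell with a proton through monocarboxylate transporters. When oxygen is scarce, HIF1α escapes degradation, pairs with ARNT and binds DNA at sites whose core letters are ACGTG or GCGTG. HIF1α then induces glucose transporters, most glycolytic enzymes and kinases that shut the pyruvate dehydrogenase complex. Many tumor cells keep these genes high with oxygen present. Several steps have paralogs that differ in this respect, and the 36 genes were sorted from textbook knowledge into 24 that are known HIF targets, called the hypoxia class here, and 12 others.

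The 250 bases upstream of the RefSeq start site are shown for 6 genes to let the reader compare the promoter letters of genes that fell steeply (HK2, SLC16A3, PFKFB4), moderately (LDHA, PGK1) and barely (LDHB). Capitals mark ACGTG on either strand, that is ACGTG or CACGT, and CACGTG counts on both. In GRCh38.p14 the windows lie at chr2:74833877-74834126 on the plus strand for HK2, chr11:18394313-18394562 on the plus strand for LDHA, chrX:78103998-78104247 on the plus strand for PGK1, chr17:82228792-82229041 on the plus strand for SLC16A3, chr3:48556804-48557053 on the minus strand for PFKFB4 and chr12:21657843-21658092 on the minus strand for LDHB.
HK2: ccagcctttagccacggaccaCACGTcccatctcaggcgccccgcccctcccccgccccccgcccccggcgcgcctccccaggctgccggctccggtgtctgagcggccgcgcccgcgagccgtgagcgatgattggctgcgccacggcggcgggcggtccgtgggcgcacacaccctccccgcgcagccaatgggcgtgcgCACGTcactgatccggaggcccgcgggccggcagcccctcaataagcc
LDHA: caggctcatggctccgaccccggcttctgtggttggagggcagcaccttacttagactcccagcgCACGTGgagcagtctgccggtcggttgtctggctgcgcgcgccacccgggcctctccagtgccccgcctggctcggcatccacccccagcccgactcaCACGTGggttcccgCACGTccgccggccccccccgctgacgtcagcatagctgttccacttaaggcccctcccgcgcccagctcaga
PGK1: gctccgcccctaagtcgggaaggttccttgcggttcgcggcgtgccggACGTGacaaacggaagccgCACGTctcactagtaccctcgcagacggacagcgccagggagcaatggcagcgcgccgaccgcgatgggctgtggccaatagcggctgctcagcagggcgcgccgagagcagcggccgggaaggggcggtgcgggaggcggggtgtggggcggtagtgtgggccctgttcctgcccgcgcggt
SLC16A3: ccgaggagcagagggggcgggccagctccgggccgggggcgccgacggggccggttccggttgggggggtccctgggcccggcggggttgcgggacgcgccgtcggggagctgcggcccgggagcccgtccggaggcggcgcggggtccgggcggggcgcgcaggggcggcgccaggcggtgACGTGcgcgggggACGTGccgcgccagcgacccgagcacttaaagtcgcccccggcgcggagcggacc
PFKFB4: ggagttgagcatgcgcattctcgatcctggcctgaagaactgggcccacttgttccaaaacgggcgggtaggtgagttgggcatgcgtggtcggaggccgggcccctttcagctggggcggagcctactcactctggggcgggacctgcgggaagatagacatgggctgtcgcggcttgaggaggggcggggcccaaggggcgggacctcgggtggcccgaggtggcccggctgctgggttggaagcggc
LDHB: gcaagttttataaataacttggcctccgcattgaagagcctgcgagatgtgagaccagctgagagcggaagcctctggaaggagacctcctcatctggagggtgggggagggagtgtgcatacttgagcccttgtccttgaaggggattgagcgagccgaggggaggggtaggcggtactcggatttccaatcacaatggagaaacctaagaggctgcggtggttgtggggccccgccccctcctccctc

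The LDHA window held 5 matches, the HK2, PGK1 and SLC16A3 windows held 2 each, and the PFKFB4 and LDHB windows held 0. Windows were usable for 27 of the 36 genes, those whose RefSeq start lay within 50 bases of the GENCODE start. At least 1 match stood in 11 of 19 hypoxia class windows (57.9%) and in 5 of 8 windows of the others (62.5%). Of 10956 promoters of genes tested, 23.4% had a match, and of all 16851 promoters 20.6% did. The members' windows together were richer in G and C, with a median of 71.2% against 66% for genes tested. By class the median was 71.2% for the hypoxia class and 65.2% for the others. A match is a description of letters and no evidence of binding. GCGTG was not counted, so a window with 0 matches can still hold that form of the core, as the PFKFB4 window does.

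Levels are adjusted reads, the deposited values scaled by the authors to a common library size. Whole reads recovered by inverting the adjustment, as described at the end, totalled between 22621338 and 26130882 per library. The lowest correlation between replicates of a group was 0.992 on the log2 scale. Changes are log2 fold changes of plaB over DMSO with standard errors (SE) from limma on log2(value + 1), which slightly understates the change of low genes. A gene passed the test where its Benjamini-Hochberg adjusted p over all 16178 genes was below 0.05. No source says that the 3 samples of a group came from separate cultures, so the test measures the spread between these samples only. The second DMSO sample was lower than the other DMSO samples for most of the hypoxia class and is described further on, with values that leave it out. As a check of the cell type, 10 of 12 ovarian epithelial markers reached 10 adjusted reads in every sample, with PAX8 between 4011 and 4581, whereas 3 of 7 leukocyte markers and 7 of 11 fibroblast and endothelial markers did. PTPRC, CD3E and LYZ and the fibroblast marker DCN stayed below 3, but CD68, which macrophages express strongly, lay between 1091 and 1590 and COL1A1, a collagen gene, between 5602 and 6902. The part of these markers in the results was not tested.

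Of the 36 genes, 28 were lower after plaB, 1 was higher and 7 did not pass the test. Across all genes tested, 25.2% were called lower and 22.4% higher, 47.6% in either direction. The median log2 fold change was -0.45 over the 36 genes and -0.00 over all genes. At least 2-fold falls were seen in 7 genes, HK2, PFKFB4, SLC2A1, SLC16A3, PFKL, PFKFB3 and ALDOC, against 1.98% of all genes. All 7 belong to the hypoxia class, and ALDOC was short of 2-fold without DMSO replicate 3 (-0.78) or plaB replicate 1 (-0.80). Because the genes were picked from this same contrast, nothing is read from these shares. The 36 genes took 2.07% ± 0.0754 (SD, n = 3) of all adjusted reads in DMSO and 1.60% ± 0.0235 in plaB. Fewer glycolytic transcripts per cell and a change in total RNA per cell cannot be told apart in libraries of this kind.

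**Figure D1:**
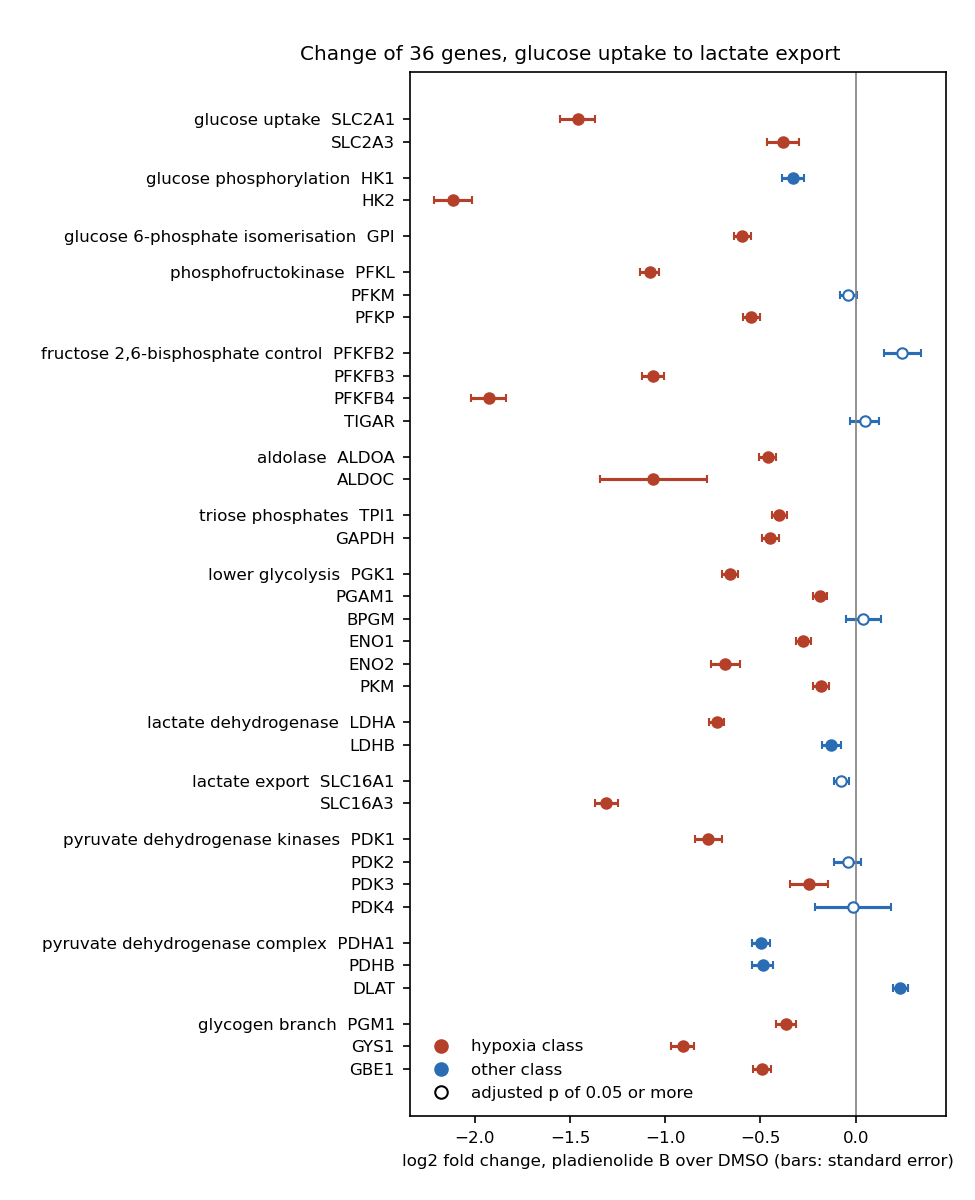
Log2 fold change of each of the 36 genes, plaB over DMSO (x axis), in the order of the pathway (y axis), with bars for the standard error, red for the hypoxia class and blue for the others, and open points for genes that did not pass the test. The steepest falls are HK2 at -2.12, PFKFB4 at -1.93, SLC2A1 at -1.46 and SLC16A3 at -1.31, and DLAT at 0.24 is the filled point to the right of zero.

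Glucose enters through facilitative transporters, of which SLC2A1 encodes GLUT1 and SLC2A3 the high-affinity GLUT3. SLC2A1 (chromosome 1, 42925353 to 42958868, GRCh38) had 4473, 3245 and 4364 adjusted reads in the DMSO samples and 1311, 1525 and 1521 in the plaB samples. The groups were far apart, with means of 4027 ± 680 and 1452 ± 123 (SD, n = 3), a log2 fold change of -1.46 (SE 0.09) that ranked 69 from the lowest of 16178. SLC2A3 fell less, from 3743, 2813 and 3902 to 2565, 2734 and 2651, a log2 fold change of -0.38 (SE 0.08). Its second DMSO sample came close to the plaB samples, and without that sample the value was -0.53. Per kilobase of transcript, the pair's summed level fell to 53.4% of DMSO. The SLC2A1 share of that sum went from 56.6% ± 0.814 to 38.2% ± 1.42 (SD, n = 3).

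Hexokinases trap glucose in the cell as glucose 6-phosphate. HK1 is the form found in most tissues, and HK2 is the inducible form that many tumors express. HK2 (chromosome 2, 74834126 to 74893359), whose promoter is printed above, had 3087, 2200 and 3096 adjusted reads in DMSO and 578, 650 and 685 in plaB. Its mean fell from 2794 ± 515 to 638 ± 54.8 (SD, n = 3), 22.8% of the DMSO level, and its log2 fold change of -2.12 (SE 0.10) ranked 7 from the lowest of all genes tested. HK1 had 9980, 8551 and 10298 adjusted reads in DMSO against 7468, 7786 and 7624 in plaB. HK1 thus kept 79.4% of its level, at -0.33 (SE 0.06). Since HK1 was the more abundant transcript per length, the summed transcript level of both hexokinases stayed at 70.5% of DMSO despite the fall of HK2.

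Glucose 6-phosphate isomerase (GPI), which makes fructose 6-phosphate, fell to 66.2% of DMSO, at -0.60 (SE 0.04). Phosphofructokinase then commits the sugar to glycolysis, and its liver (PFKL), muscle (PFKM) and platelet (PFKP) subunits behaved unequally. PFKL had 2483, 2336 and 2597 adjusted reads in DMSO and 1162, 1135 and 1201 in plaB, a log2 fold change of -1.08 (SE 0.05). PFKP, the subunit with the most transcript per length, went from 15694, 14775 and 16098 to 10360, 10315 and 11187, at -0.55 (SE 0.04). PFKM had 1873, 1873 and 1816 in DMSO and 1824, 1777 and 1817 in plaB, so its groups overlapped, and its value of -0.04 (SE 0.05) did not pass the test. SENP1, on the opposite strand, had 38.5% of the adjusted reads of PFKM in DMSO and was at 0.15. PFKP held 80.3% of the summed subunit transcripts in DMSO and 80.4% in plaB, so the transcript shares shifted mainly between PFKL and PFKM.

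Fructose 2,6-bisphosphate, the strongest activator of phosphofructokinase, is made by the PFKFB enzymes. PFKFB3, whose kinase activity far exceeds its phosphatase activity, had 5656, 4793 and 5674 adjusted reads in DMSO and 2532, 2602 and 2549 in plaB, a log2 fold change of -1.06 (SE 0.06). PFKFB4 (chromosome 3, 48517684 to 48562383) had 2759, 2118 and 2784 in DMSO and 596, 663 and 748 in plaB. It kept 26.2% of its DMSO level, and its log2 fold change of -1.93 (SE 0.09) ranked 15 from the lowest. PFKFB2, known from heart muscle, had 210, 211 and 239 in DMSO and 266, 263 and 254 in plaB. Every plaB sample of PFKFB2 was above every DMSO sample, as in 26.4% of all genes tested, and its log2 fold change of 0.25 (SE 0.10) lay just outside the limit, with a limma adjusted p of 0.051. Without DMSO replicate 3 it was 0.31 and passed. YOD1, on the opposite strand, had 190% of the adjusted reads of PFKFB2 in DMSO and was at -0.43, so the PFKFB2 level and the ratios formed with it are uncertain. TIGAR, a p53-induced phosphatase that lowers the same activator, had 608, 724 and 663 against 726, 694 and 637, at 0.05 (SE 0.08), and did not pass. The summed level of the PFKFB forms per length fell to 40.8% of DMSO, the lowest of the steps with paralogs.

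Aldolase and the triose phosphate steps split and oxidise the sugar. ALDOA went from 31177, 28503 and 31317 adjusted reads to 22075, 21355 and 22569, at -0.46 (SE 0.04). An overlapping gene on the same strand, LOC112694756, fell alike at -0.47, and whether the 2 genes share reads is not given in the sources used here, which leaves both levels uncertain. ALDOC was low, with 58.9, 58.5 and 107 in DMSO and 23.2, 33.2 and 50.1 in plaB, and its value of -1.06 had an SE of 0.28. Triosephosphate isomerase (TPI1) fell to 75.8% of DMSO, at -0.40 (SE 0.04). GAPDH, which is often used as a constant reference gene, had 134607, 133188 and 134159 adjusted reads in DMSO and 99399, 96733 and 98700 in plaB. Its spread within each group was small beside the difference between them, and it fell by 0.45 on the log2 scale (SE 0.04).

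Lower glycolysis yields ATP at phosphoglycerate kinase (PGK1) and pyruvate kinase (PKM). PGK1 (chromosome X, 78104248 to 78129295) had 16810, 15715 and 17395 adjusted reads in DMSO and 10267, 10648 and 10669 in plaB, a log2 fold change of -0.66 (SE 0.04). ENO2, the enolase known from neurons, had 9704, 7482 and 9960 against 5512, 5653 and 5595, at -0.68 (SE 0.07), whereas ENO1, the widely expressed enolase, had 71804, 72054 and 72755 against 59357, 59032 and 60763, at -0.27 (SE 0.04). The smallest falls of the hypoxia class were at the bottom of the pathway. Phosphoglycerate mutase (PGAM1) kept 87.8% and PKM 88.1% of the DMSO level, at -0.19 (SE 0.04) and -0.18 (SE 0.04). BPGM, which makes 2,3-bisphosphoglycerate in red cells, had overlapping groups, at 0.04 (SE 0.09). Reads of the alternative M1 and M2 exons of PKM are summed in a gene table, so the 2 isoforms were not analysed here.

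Lactate dehydrogenase is built from A subunits (LDHA), which favour lactate formation, and B subunits (LDHB). LDHA (chromosome 11, 18394563 to 18408425) had 40901, 39839 and 42024 adjusted reads in DMSO and 24612, 24549 and 24899 in plaB. Both groups were tight and well apart, with means of 40921 ± 1090 and 24687 ± 187 (SD, n = 3) and a log2 fold change of -0.73 (SE 0.04). LDHB had 14245, 16612 and 14572 in DMSO and 14131, 13447 and 13901 in plaB. The nearest LDHB samples of the groups differed little, and its fall of 0.13 on the log2 scale (SE 0.05) passed only narrowly, with a limma adjusted p of 0.047. Without the second DMSO sample, the highest for LDHB, its value was -0.06 and the call was lost, as it was without plaB replicate 1 (-0.14), 2 (-0.11) or 3 (-0.13). Per length, LDHA made up 61.1% ± 2.51 of the transcripts of both subunits in DMSO and 50.9% ± 0.592 in plaB (SD, n = 3). The latter is close to equal amounts of transcript, and the subunit proteins were not analysed.

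Lactate leaves through MCT4 (SLC16A3), a low-affinity exporter of glycolytic cells, and MCT1 (SLC16A1), which carries lactate in both directions. SLC16A3 (chromosome 17, 82217951 to 82240086) had 5522, 4797 and 5674 adjusted reads in DMSO and 2016, 2134 and 2286 in plaB. It kept 40.2% of its level, with a log2 fold change of -1.31 (SE 0.06). SLC16A1 had 9232, 9769 and 9406 in DMSO and 8995, 9182 and 8798 in plaB, and its value of -0.07 (SE 0.04) did not pass, with a limma adjusted p of 0.13. SLC16A3 therefore went from 44.8% ± 2.86 to 25.6% ± 1.48 of the summed transcripts of both transporters per length (SD, n = 3). CSNK1D lies opposite SLC16A3, with means of 2400 adjusted reads in DMSO and 2450 in plaB.

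The pyruvate dehydrogenase kinases switch the complex off by phosphorylation. PDK1 had 1560, 1315 and 1553 adjusted reads in DMSO and 804, 893 and 887 in plaB, at -0.77 (SE 0.07). PDK3 had 360, 328 and 398 against 303, 279 and 333, so its groups overlapped, and its value of -0.24 (SE 0.10) was just inside the limit with a limma adjusted p of 0.047. The PDK3 call was lost without DMSO replicate 1 (-0.25) or 3 (-0.17) and without plaB replicate 1 (-0.24) or 2 (-0.18). PDK2, at -0.04 (SE 0.07), and the scarce PDK4, at -0.01 (SE 0.20), did not pass. Of the complex itself, the E1 subunit genes PDHA1 and PDHB fell to 70.8% and 71.2% of DMSO, at -0.50 (SE 0.05) and -0.49 (SE 0.06). DLAT, the E2 subunit, rose from 4608, 4776 and 4472 to 5390, 5445 and 5471, at 0.24 (SE 0.04). It was the sole member called higher, so subunits of the same complex moved in opposite directions. MAP3K15, opposite PDHA1, also fell, at -0.68. SAMD14, opposite PDK2, had 39.0% of its level in DMSO and was at -0.00, and PIH1D2, opposite DLAT, had 29.2% and was at 0.10. Strand use in counting is not given in the sources used here, so reads of these partners and of those opposite the other members cannot be told apart.

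In the glycogen branch all 3 genes fell. Glycogen synthase (GYS1) had 2156, 1865 and 2192 adjusted reads in DMSO and 1069, 1098 and 1133 in plaB, at -0.91 (SE 0.06). Phosphoglucomutase (PGM1), which links glucose 6-phosphate with glycogen, was at -0.37 (SE 0.05), and the branching enzyme (GBE1) at -0.49 (SE 0.05).

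All 24 hypoxia class genes were called lower, at 22.8% to 88.1% of their DMSO levels, with a median log2 fold change of -0.63. In 23 of them every plaB sample was below every DMSO sample, PDK3 being the exception, where 28.8% of all genes tested showed that order. Of the 12 others, PDHA1, PDHB, HK1 and LDHB were lower, DLAT was higher and 7 did not pass, and the median was -0.04. Their 33.3% called lower is near the 25.2% of all genes and says little about them. Sample by sample, the class median relative to the DMSO mean was 0.04, -0.10 and 0.07 in DMSO and -0.64, -0.64 and -0.55 in plaB for the hypoxia class. For the others it was 0.01, 0.05 and -0.05 in DMSO and -0.05, -0.09 and -0.06 in plaB. The classes were drawn up with these values known, so the split is a description and not a test.

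**Figure D2:**
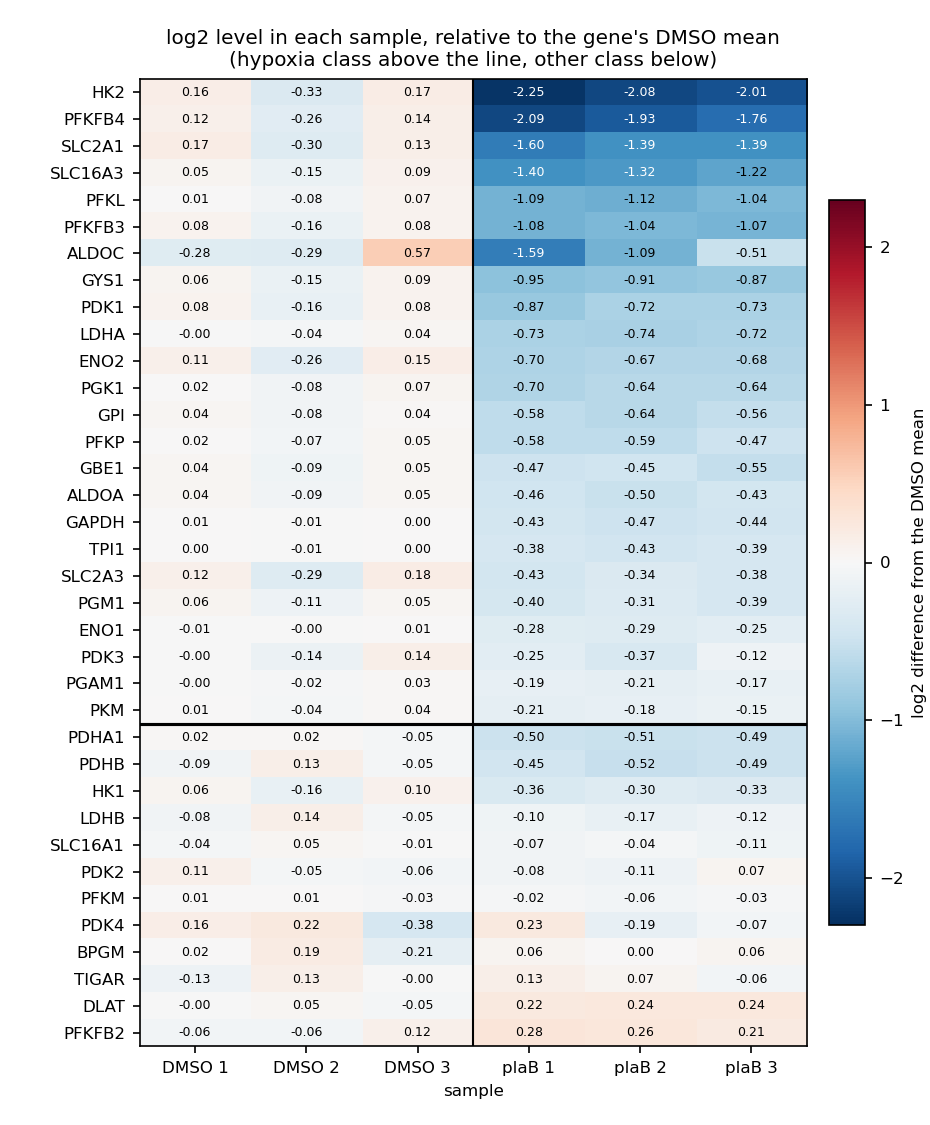
Log2 level of each gene (rows) in each of the 6 samples (columns) as the difference from its DMSO mean, blue below and red above, with hypoxia class genes above the line and the others below it. The plaB columns of the hypoxia class are blue from HK2 to PKM, and the second DMSO column is pale blue for most of the same genes.

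The second DMSO sample stood apart within its group. It was the lowest DMSO sample for 23 of 24 hypoxia class genes and for 1 of the 12 others, where 35.7% of all genes tested have that sample lowest. In the lists described further on, it was also lowest for 8 of 10 HIF subunits and regulators and 11 of 16 other inducers. It was lowest for 15 of 38 other glycolysis and glycogen genes, 3 of 12 pentose phosphate genes and 2 of 20 citric acid cycle genes. Its level was a median of 90.2% of the mean of the other DMSO samples over the hypoxia class, from 70.7% for ALDOC to 99.7% for ENO1. Over the 12 others the median was 105%, and over all genes 101%. Without that sample, 22 of the 24 falls were larger, for example -2.28 for HK2, -1.61 for SLC2A1, -2.06 for PFKFB4, -1.39 for SLC16A3 and -0.82 for ENO2. The class medians became -0.67 and -0.04, and 27 members were called lower. For the hypoxia class, the difference between the DMSO samples thus had the same direction as the plaB change but was smaller. Its part in the results was not tested beyond leaving the sample out.

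Ratios of paralogs within a sample do not depend on library size. There were 9 pairs that set a hypoxia class gene against another form of the same step. The log2 ratio fell in all 9, by a median of 1.04, and in all 9 the groups did not overlap. Among single genes tested, 28.8% lay wholly lower in plaB and 26.4% wholly higher, and no such share was computed for other gene pairs. PFKM, PFKFB2 and PDK2 recur among the pairs, and the classes were drawn up with the values known, so nothing is read from the count. HK2 to HK1 per length was 0.198, 0.165 and 0.192 in DMSO and 0.0495, 0.0534 and 0.0576 in plaB, a log2 difference of -1.79. PFKFB4 to PFKFB2 showed the largest shift among these pairs, with ratios of 26.6, 20.3 and 23.5 in DMSO and 4.53, 5.1 and 5.96 in plaB, a log2 difference of -2.17. Ratios over PFKFB2 are uncertain, since YOD1 on the opposite strand had 190% of the adjusted reads of PFKFB2 in DMSO. SLC16A3 to SLC16A1 was 0.864, 0.709 and 0.871 against 0.324, 0.336 and 0.375, at -1.24. LDHA to LDHB was 1.67, 1.39 and 1.68 against 1.01, 1.06 and 1.04, at -0.60. PDK1 to PDK2 was 0.463, 0.437 and 0.521 against 0.273, 0.309 and 0.272, at -0.73. The canonical transcripts were taken as 14.1 kb for PDK1 and 3.36 kb for PDK2. Such ratios depend on the transcript chosen, whereas their log2 differences between groups do not. PDK3 to PDK2 moved least, at -0.20. Among hypoxia class pairs, ENO2 to ENO1 fell by 0.41 on the log2 scale with the groups apart, whereas ALDOC to ALDOA overlapped. Without the second DMSO sample the difference was -1.87 for HK2 to HK1, -2.27 for PFKFB4 to PFKFB2, -1.33 for SLC16A3 to SLC16A1 and -0.69 for LDHA to LDHB. These ratios use the same samples as the gene values and are no separate evidence.

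**Figure D3:**
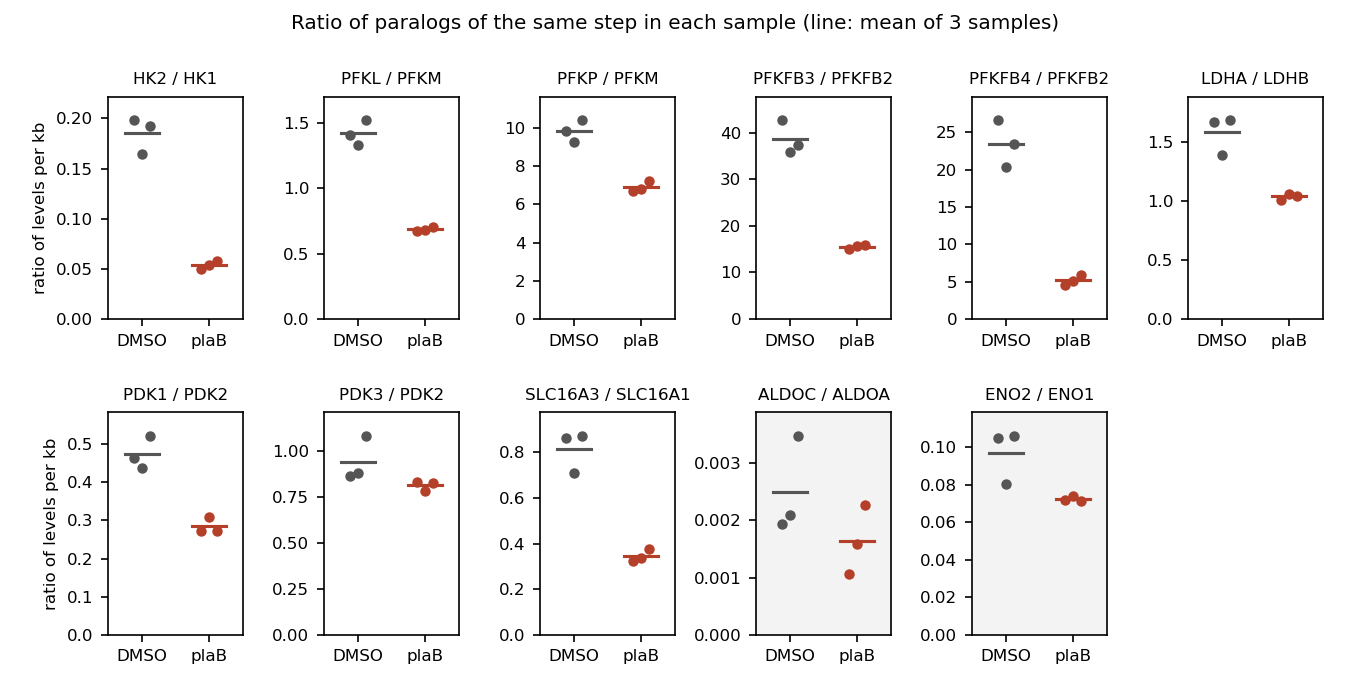
Ratio of levels per kilobase of paralogs in each sample (y axes from 0, points for samples, lines for the mean of 3), DMSO in grey and plaB in red, with grey panels for pairs within the hypoxia class. The plaB points lie below all DMSO points in each white panel, from PFKFB4 over PFKFB2 (a mean of 23.5 against 5.2) to PDK3 over PDK2 (0.941 against 0.813). Ratios over PFKFB2 are uncertain because YOD1 lies on the opposite strand.

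By level per length, as RPKM, reads scaled for the length of the canonical transcript and for library size, GAPDH led in DMSO at 4210 ± 81.1 (SD, n = 3), ahead of ENO1 at 1640 ± 28.4 and PKM at 1010 ± 41.4. ALDOA at 746 ± 49.2, LDHA at 737 ± 29.1 and TPI1 at 724 ± 13.6 followed and did not differ beyond their spread. At the low end were ALDOC at 1.88 ± 0.711, PFKFB2 at 1.25 ± 0.106 and PDK4 at 0.767 ± 0.16. The genes with the steepest falls stood in between, SLC16A3 at 82.8, SLC2A1 at 48.1, PFKFB4 at 29.5 and HK2 at 20.1. In plaB, LDHA stood at 455 ± 5.17 and LDHB at 439 ± 9.88, against 737 and 468 ± 32.8 in DMSO. Levels and shares per length depend on the canonical transcript taken for each gene.

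Related genes put the pathway in context. Of 38 tested genes of other glycolysis and glycogen enzymes, transporters and their regulators, 11 were higher (28.9%) and 8 lower (21.1%), with a median of 0.06, near the 22.4% and 25.2% of all genes. The testis-type lactate dehydrogenase LDHC was at -1.14 (SE 0.14) and the myo-inositol transporter SLC2A13 at -0.73 (SE 0.11). PCK2, the mitochondrial phosphoenolpyruvate carboxykinase, was at -0.69 (SE 0.11). PDP2, a phosphatase that reactivates the pyruvate dehydrogenase complex, was at 0.73 (SE 0.08). Of 12 pentose phosphate genes 6 were lower (50%) and 0 higher, with a median of -0.20, among them RPE at -0.55 (SE 0.08), H6PD at -0.47 (SE 0.08), TALDO1 at -0.36 (SE 0.05) and RPIA at -0.33 (SE 0.09). Of 20 citric acid cycle genes 7 were lower (35%) and 4 higher (20%), with a median of -0.05, shares not far from those of all genes. SUCLG2 and IDH3G were both at -0.63 (SE 0.06 and 0.07), and OGDH at 0.42 (SE 0.04) and IDH3A at 0.35 (SE 0.06) were higher.

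Hypoxia targets outside glycolysis were mostly lower. Of 49 tested, 37 were lower and 5 higher, with a median of -0.78, beside 25.2% and 22.4% of all genes. The list was chosen with earlier results of these data known, so nothing is read from these counts. DDIT4, an inhibitor of mTORC1 signalling, had 5104, 2095 and 4982 adjusted reads in DMSO and 556, 534 and 649 in plaB, at -2.70 (SE 0.22), with the second DMSO sample again lowest and -3.12 without it. BNIP3, a mitophagy receptor, was at -1.73 (SE 0.06) and MIR210HG, the host transcript of miR-210, at -1.95 (SE 0.18). TMEM158 went the other way, at 2.11 (SE 0.20) from a mean of 28.6. The second DMSO sample was the lowest DMSO sample for 39 of these 49 genes.

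**Figure D4:**
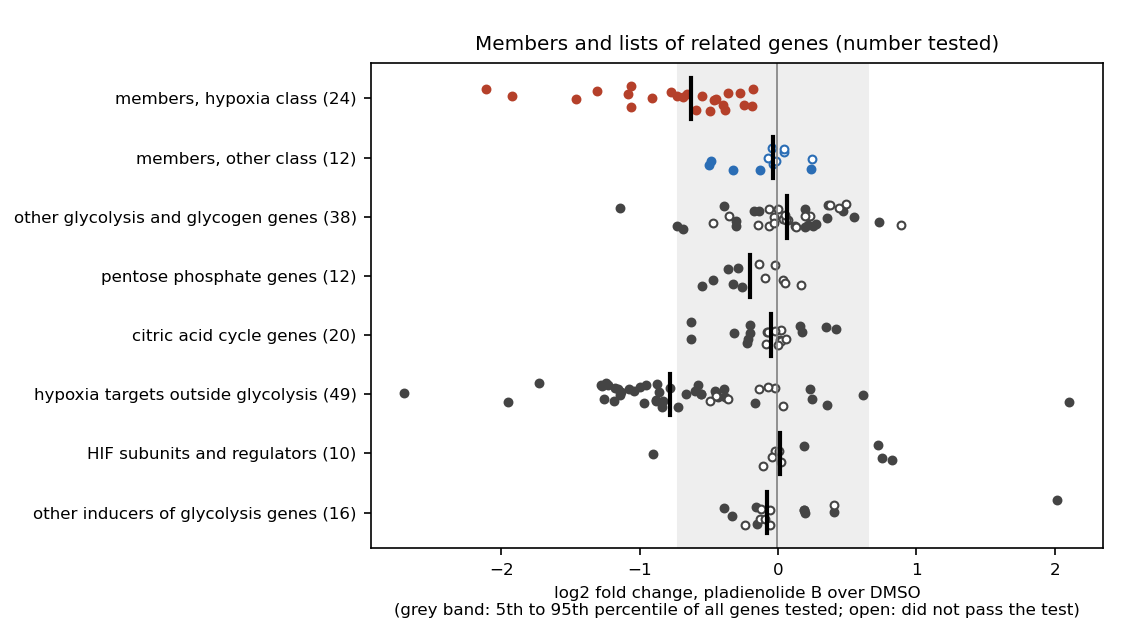
Log2 fold change (x axis) of the genes of each class or list (y axis, with the number tested), filled where the test was passed, with a black line at the median and a grey band from the 5th to the 95th percentile of all genes tested. The hypoxia class (median -0.63) and the hypoxia targets outside glycolysis (-0.78) have medians left of zero. The other lists drawn, which leave out the cell type markers, have medians from -0.20 to 0.06. Classes and lists were chosen with earlier results of these data known.

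Of the HIF subunits, HIF1A and EPAS1 transcripts were higher after plaB. HIF1A had 3770, 5462 and 3499 adjusted reads in DMSO and 7553, 7469 and 7099 in plaB, at 0.82 (SE 0.10), with a limma adjusted p of 6.3e-06. The second DMSO sample, low for the targets, was the highest DMSO sample for HIF1A, and without it the change was 1.02. HIF1A was no rule for its list. The second DMSO sample was the lowest DMSO sample for 8 of the 10 HIF subunits and regulators tested, EPAS1 and ARNT among them. EPAS1, which encodes HIF2α, was at 0.72 (SE 0.14), and at 0.58 without the second DMSO sample. ARNT, the partner of both, was at -0.02 (SE 0.07) and did not pass. The transcripts named as antisense to HIF1A moved in opposite directions, HIF1A-AS2 at 0.75 (SE 0.13) and HIF1A-AS3 at -0.91 (SE 0.22), and reads of overlapping transcripts cannot be told apart without strand. HIF proteins are controlled mainly by degradation, and protein was not analysed here.

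Of 16 other inducers and regulators of glycolysis genes, 5 were higher (31.2%) and 4 lower (25%), with a median of -0.08, near the shares of all genes. MYC had 4320, 3923 and 4392 adjusted reads in DMSO and 3304, 3008 and 3305 in plaB, at -0.39 (SE 0.05), with a limma adjusted p of 9.4e-06. SP1 was at -0.33 (SE 0.05), FOXK1 at 0.40 (SE 0.05) and ESRRA at 0.19 (SE 0.05). TXNIP, which restrains glucose uptake, was at -0.24 (SE 0.13) and did not pass, with -0.33 and a pass without DMSO replicate 2 and -0.14 without DMSO replicate 3. PPARGC1A, a coactivator of mitochondrial biogenesis, was singled out after its values were seen. It had 16.9, 14.1 and 25.7 adjusted reads in DMSO and 73, 84.1 and 75.2 in plaB, at 2.02 (SE 0.25).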

How the data were processed

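RNA sequencing values were analysed for 3 DMSO and 3 plaB samples of OVCAR8 cells. The deposited table holds non-whole values scaled by the authors, treated as a signal. They have the form of quantile-adjusted pseudo-counts, and inverting that adjustment with a common dispersion of 0.0027 gave whole reads within 0.02 for 100% of 96432 values of 10 or more. Their own comparison, a log2 fold change with p-values and q-values, was deposited beside these values by the authors and was not used. The authors aligned reads with HISAT2, and the processing notes deposited by the authors also name HTSeq 0.12.4, DESeq2 and hg19, whereas the methods name hg38. Positions of 99.97% of 26990 symbols overlapped GENCODE 44 on GRCh38, the build used here. How strand entered the counting is not given in the sources used here.

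Genes with at least 10 adjusted reads in 3 samples and a total of 15 were tested with limma 3.58.1 (R 4.3.3; trend) on log2(value + 1), plaB against DMSO, with Benjamini-Hochberg adjustment at 0.05. The procedure was tested on simulated data. RPKM used the adjusted reads, their total in each sample and the canonical GENCODE transcript length. The members, classes and lists were chosen with earlier results of these data known. All members were named, together with HIF1A, EPAS1, ARNT, MYC and TXNIP, and from each list the 4 genes of largest change that passed the test, had a mean of at least 50 and did not overlap between groups. By the same rule the marker lists gave FOLR1 at 0.85 (SE 0.15), KRT7 at -0.64 (SE 0.08), MSLN at -0.44 (SE 0.04), KRT18 at 0.29 (SE 0.06), CD68 at 0.41 (SE 0.06), PDGFRB at -0.34 (SE 0.12) and COL1A1 at -0.21 (SE 0.05) on the log2 scale. The PDGFRB call was lost without trend and without DMSO replicate 1 (-0.26) or 3 (-0.29) or plaB replicate 2 (-0.31) or 3 (-0.35), and the KRT18 call without trend. Summed ovarian epithelial markers ranged from 80879 to 86781 adjusted reads in DMSO and from 81379 to 96790 in plaB, leukocyte markers from 1156 to 1323 and 1545 to 1641, and fibroblast and endothelial markers from 7081 to 7259 and 6029 to 6720. Pseudogene rows were sought only by a member's symbol followed by P and a number. They were found for TPI1 and PGAM1 alone and held at most 0.13% of the parent's adjusted reads. Pseudogene reads of the other members were not assessed. Promoters came from RefSeq (GRCh38.p14). Filters, pseudocount, scaling, variance model, replicate block and leaving out each sample were varied.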

Additional observations from a re-analysis of the deposited data

How the results depend on the processing

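Across 14 alternatives the 36 members gave 504 values, of which 473 kept their direction and side of the threshold, and 24 members were lower and past the threshold under all of them. The number of members called lower ranged from 24 (limma without trend) to 28, and from 26 to 27 when each sample was left out in turn. PFKFB2 made a second higher gene, 2 in all, with a mean of at least 50 required, with a pseudocount of 0.1, with upper-quartile factors and with limma without trend, and the count was 1 to 2 when each sample was left out. Calls were lost in 17 values of LDHB, PDK3, SLC2A3 and ALDOC, the last 2 only without trend (limma adjusted p = 0.068 and 0.062). All genes called numbered 7695, between 6381 without trend and 7836 without DMSO replicate 2, and limma-voom on the recovered reads, an alternative chosen after seeing the data, gave 7683. Values of genes that did not pass the test reversed. PFKM was 0.00, PDK4 0.03 and ARNT 0.01 with upper-quartile factors. With each sample left out in turn, log2 fold changes ranged from -0.02 to 0.11 for TIGAR, -0.06 to 0.14 for BPGM, -0.10 to 0.02 for PDK2, -0.20 to 0.10 for PDK4 and -0.08 to 0.03 for ARNT. The cause was not tested. The 143 paralog ratio values all kept their direction. Whether same-numbered samples were handled as pairs is not known. Their deviations from the group means correlated at -0.0183, -0.0175 and 0.00261, within the range of -0.035 to 0.0485 over all DMSO and plaB combinations. These values show no shared signal but cannot show how the samples were handled. A replicate block gave 27 lower, 1 higher and 7349 genes in all. The planned runs of edgeR and DESeq2 on recovered reads were not run, and limma-voom on those reads was run in their place. ALDOC, with at most 107 adjusted reads in a sample, and PDK4, with at most 79.0, are limited by depth.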
